A study of Mus musculus with 15 samples.

Results

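The 10 genes described here, *Acly*, *Acss2*, *Me1*, *Pcx*, *Acaca*, *Fasn*, *Elovl6*, *Srebf1*, *Mlxipl* and *Thrsp*, encode enzymes and regulators of fatty acid synthesis. They were picked by name from the 55487 genes of the count table on the basis of earlier results of these same libraries, so their differences between groups are a description and support nothing by themselves. All 10 had a row in the table, and all 10 passed the filter on low counts in each comparison.

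Skin of mice aged 3 weeks, on a C57BL/6 background, was the source of all libraries. The study removed OTULIN, a deubiquitinase that cleaves linear ubiquitin chains, from keratinocytes by crossing mice with loxP-flanked *Otulin* to a *K14-Cre* line. The 5 libraries labelled WT (WT.HS) came from littermates that carried loxP-flanked alleles and lacked Cre. A further 5 libraries came from non-lesional skin (C.HS) and 5 from lesional skin (T.HS) of *Otulin* fl/fl *K14-Cre* mice, called OTULIN E-KO. Cre driven by the keratin 14 promoter acts in keratinocytes, whereas the counts cover every cell of the sample. The sources used here do not say whether a lesional and a non-lesional library share a mouse, so p-values measure the spread between these libraries.

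Fatty acid synthesis builds palmitate in the cytosol from acetyl-CoA. Acetyl-CoA carboxylase makes malonyl-CoA, fatty acid synthase joins the units with electrons from NADPH, and elongases and desaturases then lengthen and desaturate the product. In skin the pathway feeds sebum, epidermal barrier lipids and stored fat, and its genes are known targets of the transcription factors SREBP and ChREBP and of nuclear receptors.

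Library totals ran from 1962604 to 2567138 counts, and no difference between groups passed a two-sided exact permutation test (p = 0.254 for non-lesional against WT, 0.0714 for lesional against WT and 0.159 for lesional against non-lesional). *Otulin* (ENSMUSG00000046034, chr15:27542635-27630693, minus strand, GRCm38) was not lower in the OTULIN E-KO libraries. Its medians were 22.9 normalised CPM (each count over its library total, on a common scale) in WT, 27.1 in non-lesional and 25.6 in lesional libraries, and the ranges overlapped (12.2 to 28.3, 21.3 to 30.7 and 19.0 to 27.2). Reads near the 3′ end need not fall in the deleted part and other skin cells keep the gene, so this count does not check the labels, and groups are named below as labelled. Lesional replicates 11 and 2 stood apart. Their summed inflamed epidermis markers were 34470 and 13448 CPM, against 250.2 to 1317 in the other libraries, and replicate 11 had the lowest summed skeletal muscle markers, 4684 CPM against 20456 to 46398 elsewhere. Lesional replicates 5, 8 and 14 had 351.9, 250.2 and 434.7 CPM of inflamed epidermis markers, against 278.7 to 1317 CPM in WT libraries. Lesional fold changes and counts over WT are therefore also given without replicates 2 and 11. Those values rest on lesional libraries in which inflamed epidermis markers were not raised above the WT range.

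Compared with WT, the libraries labelled non-lesional had higher fitted levels of all 10 genes, with a median log2 fold change of 0.44. Over all 13021 genes tested the median was -0.003, and 49.4% of genes were above 0. *Pcx*, *Fasn* and *Acaca* stood highest, at 1.67, 1.62 and 1.55 times the WT level. None of the 10 passed a Benjamini-Hochberg adjusted p under 0.05 in edgeR's quasi-likelihood test, where each adjusted p was 1 and 0 of 13021 genes (0%) passed (411 had an unadjusted p under 0.05). DESeq2 called 1 gene and limma's voom 0. At an unadjusted p under 0.05, 5 of the 10 were higher (*Fasn*, *Acaca*, *Acly*, *Pcx* and *Acss2*) and 0 lower, against 1.85% of all genes higher and 1.31% lower. Without non-lesional replicate 12, WT replicate 4 or WT replicate 13 the number higher at that p was 4, *Acss2* then being at an unadjusted p above 0.05. Every non-lesional library lay above every WT library for 1 of the 10, *Acly*, against 0.384% of all genes. Hair follicle markers were below WT for 5 of the 5 tested in each OTULIN E-KO group (medians -0.58 and -0.55), and their sum was 1535 CPM in WT replicate 1 against 105 to 235 in the other libraries. Without WT replicate 1 the 10 genes were all still above WT in non-lesional libraries, with a median of 0.41. Of other markers, 11 of 17 of white adipocytes, 6 of 9 of brown adipocytes, 11 of 17 of sebocytes, 4 of 10 of fibroblasts, 8 of 15 of skeletal muscle, 7 of 15 of epidermal keratinocytes, 6 of 11 of leukocytes and 1 of 2 of inflamed epidermis were above WT in non-lesional libraries.

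In the libraries labelled lesional, 9 of the 10 genes were above WT and *Mlxipl* was below, with a median log2 fold change of 0.20 beside -0.003 over all 12918 genes tested, of which 49.5% were above 0. The count of 9 was 5 without lesional replicate 5 and 7 to 10 with any 1 other library left out, and *Me1* was at 0.007. Here *Pcx*, *Acaca*, *Fasn* and *Acly* had the largest values, 1.70, 1.56, 1.47 and 1.30 times WT. Adjusted p-values of the 10 ran from 0.926 to 0.998 in edgeR, and 0 of 12918 genes (0%) passed (621 had an unadjusted p under 0.05). DESeq2 called 14 genes and voom 0, none of the 10 among them. At an unadjusted p under 0.05 these same 4 genes were higher and 0 were lower, against 3.24% of all genes higher and 1.56% lower. The groups did not overlap for 3 of the 10 (*Acaca*, *Acly* and *Pcx*), against 0.449% of all genes with every lesional library above every WT library. In the same comparison 12 of 17 white adipocyte, 5 of 9 brown adipocyte, 8 of 16 sebocyte, 8 of 10 fibroblast, 10 of 15 skeletal muscle, 8 of 15 epidermal keratinocyte and 6 of 11 leukocyte markers were below WT (medians -0.19, -0.03, 0.01, -0.24, -0.03, -0.01 and -0.04), and 2 of 2 of inflamed epidermis were above (3.88). Leaving out lesional replicates 2 and 11, 6 of 17, 4 of 9, 12 of 16, 5 of 10, 0 of 15, 10 of 15 and 7 of 11 were below WT, and 0 of 2 above. The part of these cells was not tested. Both comparisons use the 5 WT libraries, so their values stand side by side and are no independent evidence of each other. Without lesional replicates 2 and 11, 7 of the 10 were above WT with a median of 0.32, and 3 had an unadjusted p under 0.05 (*Pcx*, *Fasn* and *Acaca*, with log2 fold changes of 0.85, 0.76 and 0.71), where 394 of 13415 genes had such a p in either direction. *Acly* was then at 0.28, with an unadjusted p of 0.0766 and an adjusted p of 0.999 in edgeR.

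Between lesional and non-lesional libraries the log2 fold changes of the 10 genes ran from -0.395 to 0.026. The median log2 fold change of lesional over non-lesional was -0.17 beside 0.003 over all 12864 genes tested, with 2 of the 10 above 0 and 8 below, where 50.6% of all genes were above 0. The number above 0 was 4 without lesional replicate 2 or non-lesional replicate 3, 3 without lesional replicate 5 and 0 without non-lesional replicate 6 or 9. Of the 10, 0 had an unadjusted p under 0.05 in either direction, against 2.89% of all genes higher and 1.33% lower. Adjusted p-values ran from 0.973 to 0.998 in edgeR, and 0 of 12864 genes (0%) passed (543 had an unadjusted p under 0.05, and DESeq2 and voom called 0). Without lesional replicates 2 and 11 the median was -0.08, with 4 of the 10 above 0. Markers of some other skin cells lay lower in this comparison, 16 of 17 of white adipocytes, 6 of 9 of brown adipocytes, 10 of 16 of sebocytes, 8 of 10 of fibroblasts and 12 of 15 of skeletal muscle, with medians of -0.24, -0.02, -0.12, -0.18 and -0.09. Leaving out lesional replicates 2 and 11, these counts were 9 of 18, 4 of 9, 16 of 17, 4 of 10 and 0 of 15. Others lay higher, 5 of 5 markers of inflamed epidermis (median 4.78), 7 of 11 of leukocytes (0.08), 8 of 15 of epidermal keratinocytes (0.05) and 3 of 5 of hair follicles (0.12), and without those replicates 0 of 6, 6 of 11, 8 of 15 and 4 of 6. The part of these cells in the values of the 10 genes was not tested.

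**Figure D1:**
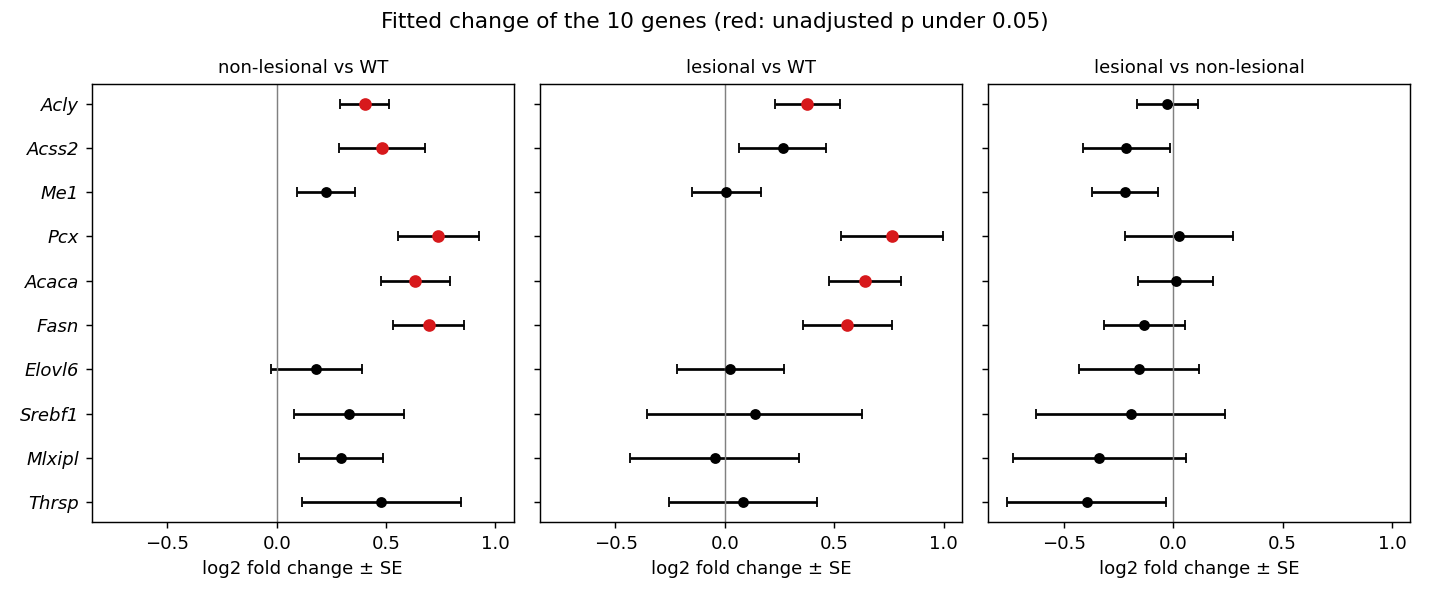
Log2 fold change (x axis, with its standard error as bars) of each of the 10 genes in the 3 comparisons, from edgeR's quasi-likelihood fit, with red points for an unadjusted p under 0.05. All 10 points of non-lesional against WT lie above 0, and the points of lesional against non-lesional lie between -0.40 and 0.03.

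The values of the single genes follow in the order of the pathway. CPM are counts over the library total scaled by edgeR's TMM factor, and values in a group are listed in the order of replicates 1, 4, 7, 10 and 13 for WT, 3, 6, 9, 12 and 15 for non-lesional and 2, 5, 8, 11 and 14 for lesional libraries. Gene positions are those of GRCm38.

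*Acly* (ENSMUSG00000020917, chr11:100476353-100528000, minus strand) encodes ATP citrate lyase, which cleaves citrate in the cytosol to acetyl-CoA. Its levels were 65.7, 60.3, 58.3, 57.9 and 54.5 CPM in WT libraries, 87.7, 80.4, 68.4, 76.9 and 79.2 CPM in non-lesional libraries and 67.4, 66.8, 72.9, 99.99 and 77.8 CPM in lesional libraries. Every OTULIN E-KO library was above every WT library, and the closest were lesional replicates 5 and 2. The means were 59.4 ± 4.13, 78.5 ± 6.94 and 77.0 ± 13.6 CPM (SD, n = 5 each). The log2 fold change over WT was 0.40 (SE 0.11) in non-lesional and 0.38 (SE 0.15) in lesional libraries.

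*Acss2* (ENSMUSG00000027605, chr2:155517948-155585724, plus strand) encodes the acetyl-CoA synthetase that makes acetyl-CoA from acetate. Levels were 20.5, 13.99, 25.1, 19.8 and 16.5 CPM in WT, 18.7, 25.1, 28.5, 36.5 and 24.9 CPM in non-lesional and 21.3, 18.0, 25.6, 23.4 and 26.7 CPM in lesional libraries. The groups overlapped, and only non-lesional replicates 9 and 12 and lesional replicates 8 and 14 were above the highest WT library. The fitted log2 fold change was 0.48 (SE 0.20) in non-lesional and 0.26 (SE 0.20) in lesional libraries over WT, the latter 0.29 without lesional replicates 2 and 11 and 0.17 without WT replicate 4. Exons of *Ggt7*, *Gss* and *Acss2os* overlap this gene on the opposite strand, and the counting options in the study's methods set no strand, for which the default is to ignore it, so their reads cannot be told apart.

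*Me1* (ENSMUSG00000032418, chr9:86581371-86695953, minus strand) encodes cytosolic malic enzyme, a source of NADPH. Levels were 74.6, 77.4, 107, 99.7 and 97.4 CPM in WT, 94.4, 101, 117.5, 130.2 and 89.7 CPM in non-lesional and 86.0, 102, 97.3, 103 and 68.6 CPM in lesional libraries. The 3 groups overlapped, and lesional replicate 14 was the lowest of all 15 libraries. Over WT, the log2 fold change was 0.23 (SE 0.13) in non-lesional and 0.007 (SE 0.16) in lesional libraries. The former was 0.14 without non-lesional replicate 12. Exons of *A330041J22Rik* overlap this gene on the opposite strand.

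*Pcx* (ENSMUSG00000024892, chr19:4510472-4621752, plus strand) encodes pyruvate carboxylase, the mitochondrial enzyme that makes oxaloacetate and so supplies citrate. In WT libraries its levels were 13.9, 13.99, 15.3, 17.3 and 15.4 CPM, in non-lesional libraries 29.4, 22.1, 16.9, 30.04 and 28.4 CPM and in lesional libraries 20.4, 20.5, 19.6, 25.9 and 42.8 CPM. WT libraries lay in a narrow band, and of the 10 OTULIN E-KO libraries only non-lesional replicate 9 fell inside it. Means were 15.2 ± 1.38, 25.4 ± 5.69 and 25.8 ± 9.80 CPM (SD, n = 5 each). The log2 fold change over WT was 0.74 (SE 0.19) in non-lesional and 0.76 (SE 0.23) in lesional libraries. The lesional value was 0.51 with replicate 14, the highest library, left out.

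*Acaca* (ENSMUSG00000020532, chr11:84129672-84401651, plus strand) encodes acetyl-CoA carboxylase alpha, which makes malonyl-CoA and is the committed step of the pathway. Levels were 27.5, 23.2, 31.0, 27.4 and 24.1 CPM in WT, 52.5, 30.2, 40.0, 41.3 and 42.5 CPM in non-lesional and 36.7, 38.0, 39.2, 39.3 and 54.5 CPM in lesional libraries. Of the 10 OTULIN E-KO libraries, non-lesional replicate 6 alone was within the WT range. The means were 26.6 ± 3.11, 41.3 ± 7.95 and 41.5 ± 7.31 CPM (SD, n = 5 each), with log2 fold changes over WT of 0.63 (SE 0.16) and 0.64 (SE 0.16). Lesional and non-lesional libraries differed by 0.01 on the log2 scale (SE 0.17).

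*Fasn* (ENSMUSG00000025153, chr11:120805846-120824547, minus strand) encodes fatty acid synthase, which makes palmitate. WT libraries had 99.8, 100.1, 130.5, 177 and 147 CPM. Non-lesional libraries had 195, 266, 174, 242 and 184 CPM, and lesional libraries 118, 219, 209, 179.6 and 240.2 CPM. The lower end of each OTULIN E-KO group (non-lesional replicate 9 and lesional replicate 2) overlapped WT, whose highest library was replicate 10. Means were 131 ± 33.0, 212 ± 39.7 and 193 ± 47.3 CPM (SD, n = 5 each). The log2 fold change over WT was 0.69 (SE 0.16) in non-lesional libraries (unadjusted p = 0.00054, adjusted p = 1 in edgeR) and 0.56 (SE 0.20) in lesional libraries (unadjusted p = 0.0157, adjusted p = 0.926 in edgeR). In DESeq2's Wald test the adjusted p-values were 0.374 and 0.641, and over all alternatives run they ran from 2.48e-05 to 1 and from 0.615 to 1. The non-lesional call depended on the filter, since with no filter on low counts edgeR gave an adjusted p of 2.48e-05 at a log2 fold change of 0.69. The lesional value was 0.76 without lesional replicates 2 and 11.

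The sequences just before the start sites of these 4 genes are shown because they were the 4 of the 10 genes with an unadjusted p under 0.05 over WT in both OTULIN E-KO groups. Each is the 250 bases upstream of a RefSeq start site (GRCm38.p6), 5′ to 3′ on the gene's strand, and for *Pcx* the more upstream of its pair of listed promoters. The windows of *Fasn*, *Acly* and *Pcx* adjoin the first base of the gene as annotated by GENCODE, whereas the single start site listed for *Acaca* lies inside its GENCODE span, far downstream of the first base, so that window has another position than the other 3. Capitals mark matches on either strand to CCAAT, the letters bound by NF-Y, to the GC box GGGCGG, bound by Sp factors, or to the E-box CACGTG, the core bound by ChREBP and USF. Adjoining capitals near the end of the *Fasn* window hold overlapping matches on opposite strands.
Fasn, chr11:120824548-120824797, minus strand: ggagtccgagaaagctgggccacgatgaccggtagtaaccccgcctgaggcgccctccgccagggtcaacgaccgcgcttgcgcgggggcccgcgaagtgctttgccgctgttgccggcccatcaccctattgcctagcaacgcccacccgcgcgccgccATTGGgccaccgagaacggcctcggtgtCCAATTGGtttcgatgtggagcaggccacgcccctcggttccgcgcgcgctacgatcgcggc
Acaca, chr11:84195188-84195437, plus strand: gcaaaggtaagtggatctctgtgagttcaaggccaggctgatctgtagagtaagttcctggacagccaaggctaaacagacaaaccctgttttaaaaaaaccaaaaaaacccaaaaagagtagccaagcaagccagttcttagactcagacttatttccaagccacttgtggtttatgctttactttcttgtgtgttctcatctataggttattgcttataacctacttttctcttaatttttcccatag
Acly, chr11:100528001-100528250, minus strand: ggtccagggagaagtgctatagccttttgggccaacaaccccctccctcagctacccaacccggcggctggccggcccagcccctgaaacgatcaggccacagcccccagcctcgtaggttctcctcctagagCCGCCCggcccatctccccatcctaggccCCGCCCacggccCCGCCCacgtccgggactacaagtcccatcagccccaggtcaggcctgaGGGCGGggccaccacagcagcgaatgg
Pcx, chr19:4510222-4510471, plus strand: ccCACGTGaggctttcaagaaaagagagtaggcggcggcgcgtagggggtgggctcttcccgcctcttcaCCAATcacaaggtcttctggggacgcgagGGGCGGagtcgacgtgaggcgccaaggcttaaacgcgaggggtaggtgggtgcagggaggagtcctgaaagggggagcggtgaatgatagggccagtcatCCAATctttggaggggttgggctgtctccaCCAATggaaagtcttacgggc

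*Fasn* held 3 CCAAT matches, *Acly* 4 GC boxes, *Pcx* 3 CCAAT matches with 1 GC box and 1 E-box, and *Acaca* none of these. GC content was 69.2% for *Fasn*, 68.8% for *Acly*, 60.8% for *Pcx* and, in the window inside the gene, 39.2% for *Acaca*. Of the 15 listed promoters of the 10 genes, 8 held CCAAT and 7 held a GC box, where 33.8% and 32.7% of all 32851 promoters searched did. CACGTG was in 2 of the 15, 1 each of *Mlxipl* and *Pcx* (6.02% of all promoters). TCACNCCAC, a core of the sterol regulatory element, was found for *Mlxipl* only, in its more downstream promoter (1.05% of all promoters). A match is a description of the letters and no evidence of binding.

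*Elovl6* (ENSMUSG00000041220, chr3:129532355-129638495, plus strand) encodes the elongase that extends palmitate to stearate. Its levels were 718, 515, 676, 743 and 455 CPM in WT libraries, 1009, 749.5, 708, 649 and 408 CPM in non-lesional libraries and 853, 755, 498, 728 and 323 CPM in lesional libraries. The WT range lay inside that of each OTULIN E-KO group, and the highest and the lowest library were both from OTULIN E-KO mice. Log2 fold changes over WT were 0.18 (SE 0.21) in non-lesional and 0.03 (SE 0.24) in lesional libraries. Without non-lesional replicate 3 the first of these was 0.01 and without replicate 15 it was 0.33, and without lesional replicates 2 and 11 the second was -0.25. Exons of *Gm35986* overlap this gene on the opposite strand.

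*Srebf1* (ENSMUSG00000020538, chr11:60199089-60222581, minus strand) encodes SREBP1, a transcription factor that activates lipogenic genes. Levels were 20.5, 31.0, 9.42, 32.9 and 22.9 CPM in WT, 24.9, 34.5, 30.5, 35.3 and 21.9 CPM in non-lesional and 32.6, 38.5, 18.4, 35.8 and 3.40 CPM in lesional libraries. Lesional replicate 14 had only 7 counts, and WT replicate 7 had 21, where every other library had 46 to 88. Over WT, the log2 fold change was 0.33 (SE 0.25) in non-lesional and 0.14 (SE 0.49) in lesional libraries, and the latter was 0.42 without lesional replicate 14 and -0.235 without lesional replicates 2 and 11. Without WT replicate 7, the low WT library, they were 0.14 and -0.06. Exons of *Rai1* on the opposite strand and *Mir6922* on the same strand overlap this gene.

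*Mlxipl* (ENSMUSG00000005373, chr5:135089890-135138382, plus strand) encodes ChREBP, the carbohydrate-responsive activator of lipogenic genes. Levels were 16.6, 24.05, 23.8, 30.8 and 27.1 CPM in WT, 38.3, 30.2, 19.0, 32.4 and 30.2 CPM in non-lesional and 19.5, 22.6, 30.8, 4.48 and 40.8 CPM in lesional libraries. The groups overlapped, and lesional replicate 11 was far below the other libraries, at 9 counts. The log2 fold change over WT was 0.29 (SE 0.19) in non-lesional and -0.05 (SE 0.39) in lesional libraries. Leaving out lesional replicate 11 turned the latter to 0.22, and leaving out replicate 2 as well to 0.36. The former was 0.18 without WT replicate 1 and 0.19 without non-lesional replicate 3. Exons of *Gm43500* overlap it on the opposite strand.

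*Thrsp* (ENSMUSG00000035686, chr7:97412938-97417730, minus strand) encodes Spot 14, a small nuclear protein tied to lipogenesis in fat, liver and mammary gland. Levels were 31.3, 42.4, 24.7, 53.2 and 71.1 CPM in WT, 37.9, 99.96, 34.2, 78.5 and 60.8 CPM in non-lesional and 30.3, 76.0, 46.4, 23.4 and 60.8 CPM in lesional libraries. Replicates of 1 group differed widely, with a coefficient of variation of 41.3%, 44.5% and 45.6% in the 3 groups. The log2 fold change over WT was 0.48 (SE 0.36) in non-lesional and 0.08 (SE 0.34) in lesional libraries. The lesional value was 0.44 without lesional replicates 2 and 11 and 0.315 without WT replicate 13. The non-lesional value was 0.245 without non-lesional replicate 6 and 0.72 without WT replicate 13.

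**Figure D2:**
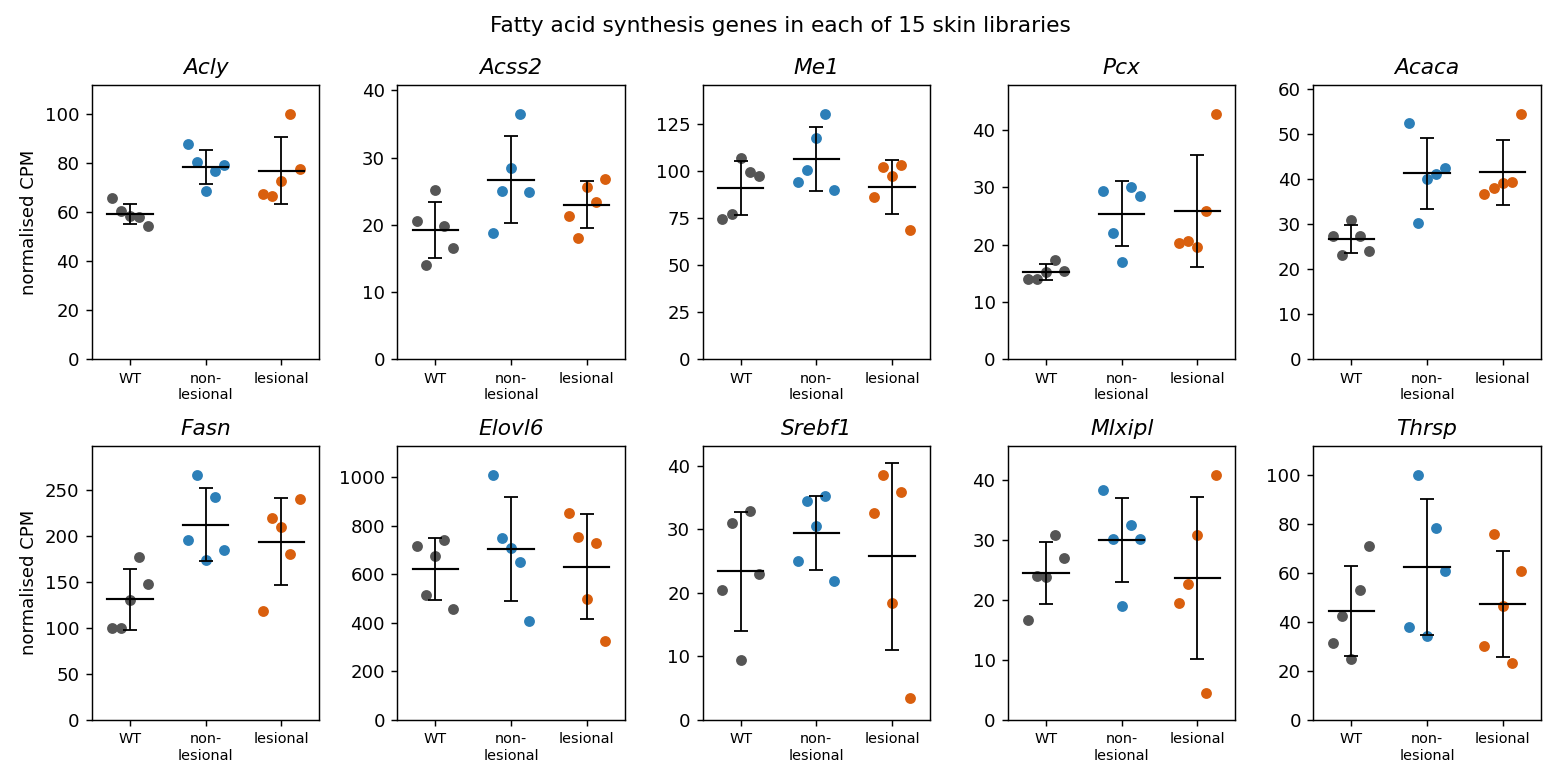
Normalised CPM (y axis, from 0) of each of the 10 genes in the 5 WT, 5 non-lesional and 5 lesional libraries, with 1 point per library, a line at the mean and bars of 1 SD. For *Acly*, every non-lesional and lesional library is above 65.7 CPM, the highest WT value, while for *Thrsp* and *Elovl6* the groups overlap.

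The spread of the 10 genes differed in WT skin. The coefficient of variation over the 5 WT libraries was 6.97% for *Acly*, 9.09% for *Pcx* and 11.7% for *Acaca*, against 40.2% for *Srebf1* and 41.3% for *Thrsp*. In lesional libraries *Srebf1* and *Mlxipl* reached 57.1% and 57.3%.

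The genes did not move as 1 block from library to library. Given as a description over 15 libraries that share the group differences by which genes were picked, the 45 pairs of genes had a median Pearson's r of 0.12 (log2 CPM, prior count 2), from -0.34 to 0.85, with 29 pairs above 0. With each group centred on its own mean, the median was -0.02 and 21 pairs were above 0. *Acaca* and *Pcx* were the closest pair (r = 0.85, Spearman's rho = 0.81), and r was 0.65 within groups. Next came *Acly* and *Pcx* (r = 0.73, rho = 0.77), *Fasn* and *Pcx* (0.71 and 0.80) and *Acaca* and *Acly* (0.71 and 0.74). Within groups r was 0.40, 0.43 and 0.22 for these pairs. *Fasn* and *Thrsp* had r = 0.62 (rho = 0.68) and 0.67 within groups. By contrast, *Fasn* and *Acaca*, the core enzymes, had r = 0.59 (rho = 0.56) and 0.09 within groups, and *Fasn* and *Acly* had r = 0.53 (rho = 0.61) and -0.02 within groups. *Srebf1* and *Acaca* had r = -0.32 (rho = -0.14) and -0.70 within groups, which includes lesional replicate 14, low in the former and high in the latter.

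**Figure D3:**
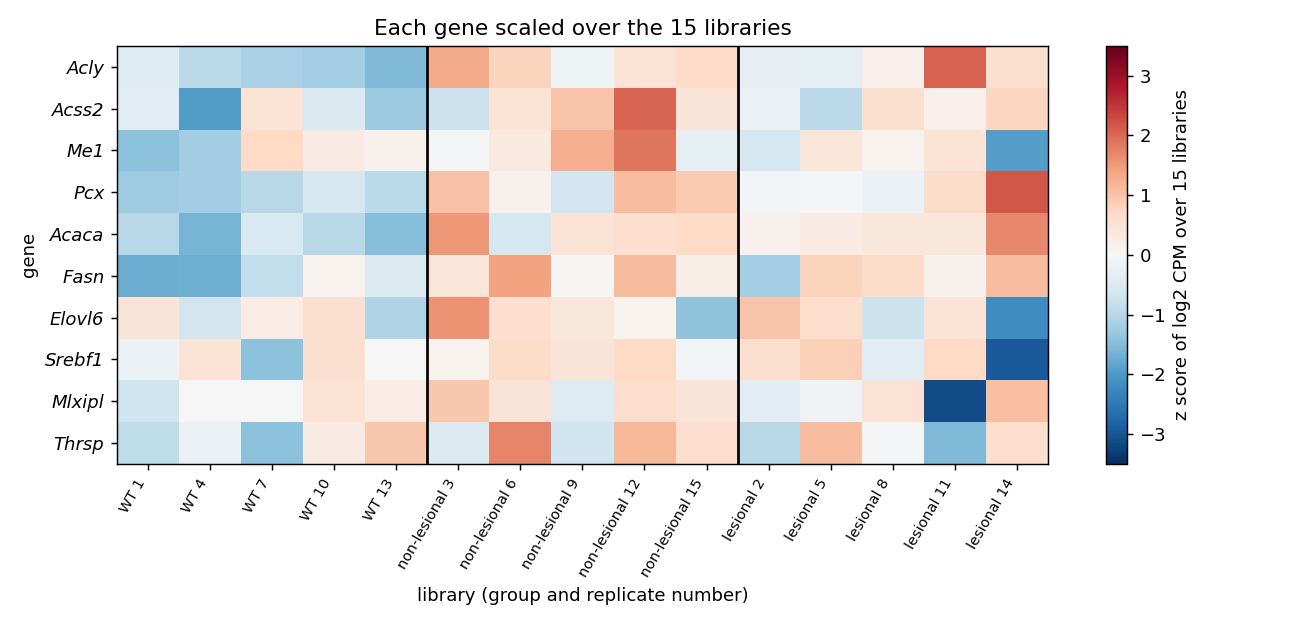
Z score of log2 CPM over the 15 libraries (colour) for each of the 10 genes (rows) in each library (columns), with black lines between WT, non-lesional and lesional libraries. *Mlxipl* in lesional replicate 11 (-3.12) and *Srebf1* in lesional replicate 14 are the darkest blue cells, and *Pcx*, *Acaca*, *Fasn* and *Acly* are mostly blue in WT.

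Skin holds many cell types, some of which make fat. The genes were set beside markers of white and brown adipocytes, sebocytes, skeletal muscle, epidermal keratinocytes and fibroblasts, and beside sterol synthesis genes. *Thrsp* followed 17 of 18 white adipocyte markers that passed the filter (mean log2 CPM), with Pearson's r = 0.84 (permutation p = 4e-05, adjusted p = 0.0021) and Spearman's rho = 0.82 (permutation p = 0.0003, adjusted p = 0.021) over 15 libraries. Adjustment was by Benjamini-Hochberg over 70 pairs of 10 genes and 7 lists. The value was 0.74 without the 2 libraries farthest from the median marker level and 0.84 within groups. Summed white adipocyte markers ran from 4664 to 6946 CPM in WT, 5200 to 7524 in non-lesional and 2533 to 7436 in lesional libraries, with no defining marker at 0 and the lowest sum in lesional replicate 11, where *Thrsp* was also lowest. In bulk skin, fewer cells of a type and less RNA per cell cannot be told apart.

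*Mlxipl* followed the 15 skeletal muscle markers, with Pearson's r = 0.94 (permutation p = 6e-05, adjusted p = 0.0021) and Spearman's rho = 0.70 (permutation p = 0.00434, adjusted p = 0.152) over 15 libraries. Lesional replicates 11 and 14 were the lowest and the highest in both, and without these 2 farthest libraries r was 0.67. Within groups r was 0.95 with all libraries. *Elovl6* followed 17 of 18 sebocyte markers, with Pearson's r = 0.78 (permutation p = 0.00061, adjusted p = 0.0142) and Spearman's rho = 0.66 (permutation p = 0.00862, adjusted p = 0.158), 0.75 without the 2 farthest libraries and 0.78 within groups. Summed sebocyte markers were lowest in WT replicate 4 (1230 CPM), non-lesional replicate 15 (1336) and lesional replicate 14 (1364), and the latter 2 libraries also had the lowest *Elovl6* of their groups. *Mlxipl* also followed the 9 brown adipocyte markers that passed (r = 0.82, permutation p = 0.00129, adjusted p = 0.0226, and rho = 0.66, permutation p = 0.00901, adjusted p = 0.158), with r = 0.45 without the 2 farthest libraries and 0.84 within groups. Lesional replicates 11 and 14 were the lowest and the highest in the brown adipocyte markers too, at 4.30 and 5.47 mean log2 CPM. The brown adipocyte and skeletal muscle lists were therefore not told apart for *Mlxipl*. The part of these cells in the levels was not tested.

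**Figure D4:**
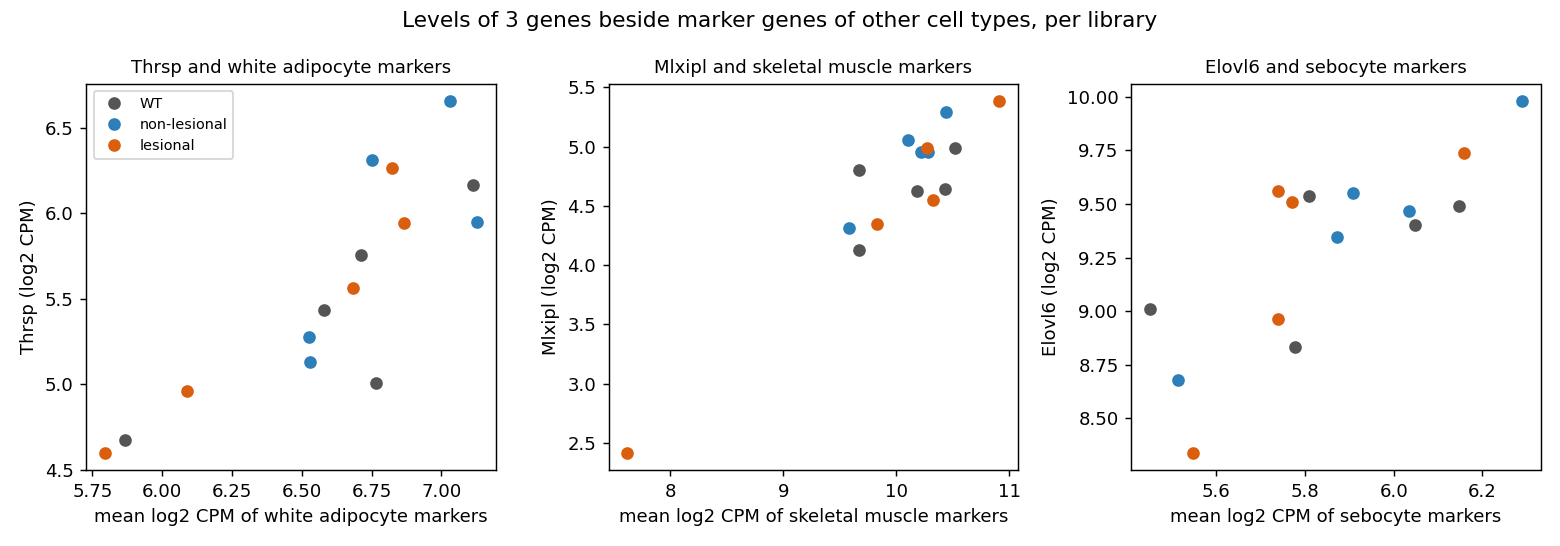
Log2 CPM of *Thrsp*, *Mlxipl* and *Elovl6* (y axes) against the mean log2 CPM of white adipocyte, skeletal muscle and sebocyte markers (x axes), with 1 point per library coloured by group. In the middle panel lesional replicate 11 lies alone at the lower left, at 2.42 for *Mlxipl*, and lesional replicate 14 is the highest, at 5.38.

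For *Fasn*, *Acaca*, *Acly* and *Pcx*, no pair with these 7 lists passed, and the smallest adjusted p was 0.216 for Pearson's r and 0.692 for Spearman's rho (permutation tests, *Acly* with sterol synthesis genes, r = 0.57 and rho = 0.37). *Fasn* had r = 0.35 (adjusted permutation p = 0.58) with white adipocyte and -0.18 (adjusted permutation p = 0.772) with sebocyte markers. These values moved with the libraries included. Without the 2 libraries farthest from the median marker level, r was -0.64 for *Fasn* and -0.66 for *Pcx* with sebocyte markers (-0.18 for both with all 15) and -0.67 for *Fasn* with epidermal keratinocyte markers (-0.12 with all 15), and 0.40 for *Fasn* with white adipocyte markers and 0.22 for *Acly* with sterol synthesis genes.

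Other genes of the pathway were counted from lists, also written with earlier results known. Of 24 genes that supply citrate, acetyl-CoA or NADPH, 18 were above WT in non-lesional and 16 in lesional libraries, with median log2 fold changes of 0.14 and 0.05, and 1 and 2 were higher at an unadjusted p under 0.05, where 49.4% and 49.5% of all genes were above WT and 1.85% and 3.24% were higher at that p. *Aacs*, which makes acetoacetyl-CoA for lipid synthesis, was 29.7 CPM in non-lesional against 19.4 in WT libraries (log2 fold change 0.61, SE 0.21). *G6pdx*, the first enzyme of the pentose phosphate pathway, was 31.4 CPM in lesional against 18.7 in WT and 18.0 in non-lesional libraries (0.75, SE 0.28, and 0.80, SE 0.26). *Slc25a1*, the mitochondrial citrate carrier, was 43.0 CPM in lesional against 31.8 in WT libraries (0.43, SE 0.20). Without lesional replicates 2 and 11, *G6pdx* and *Slc25a1* were at 0.37 and 0.16 over WT, *G6pdx* was at 0.43 over non-lesional libraries, and against WT 14 of the 24 genes were higher and 0 had an unadjusted p under 0.05 in edgeR.

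Of 21 elongases, desaturases and their partners tested, 16 were above WT in non-lesional and 10 in lesional libraries, where 49.4% and 49.5% of all genes were. The sole gene of them at an unadjusted p under 0.05 was *Elovl3*, in lesional libraries, where 3.24% of all genes were higher at that p. *Elovl3*, an elongase of sebaceous glands that also stands in the sebocyte list, was 30.4 CPM in lesional against 13.4 in WT libraries (log2 fold change 1.18, SE 0.51). Its value was 0.11 without lesional replicates 2 and 11, and 11 of the 21 genes were above WT. Of 18 other lipogenic regulators, 12 were above WT in non-lesional and 7 in lesional libraries and none had an unadjusted p under 0.05. *Mid1ip1*, the paralogue and partner of *Thrsp* that promotes polymerisation of acetyl-CoA carboxylase, was 69.6 CPM in non-lesional and 75.4 in lesional against 57.1 in WT libraries (0.29, SE 0.14, and 0.41, SE 0.22), and without lesional replicates 2 and 11 the lesional value was 0.10 and 8 of the 18 were above WT.

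Of 24 tested genes of fatty acid oxidation, the opposing pathway, 12 were above and 12 below WT in non-lesional libraries, and 8 above and 16 below in lesional libraries, or 12 of 25 above without lesional replicates 2 and 11. *Cpt1a*, which admits long acyl chains to mitochondria and is inhibited by malonyl-CoA, was 35.8 CPM in non-lesional and 33.0 in lesional against 46.1 in WT libraries (log2 fold change -0.37, SE 0.17, and -0.48, SE 0.21), and -0.56 in lesional libraries without replicates 2 and 11. *Mlycd*, the decarboxylase that removes malonyl-CoA, was 15.7 CPM in non-lesional against 21.1 in WT libraries (-0.43, SE 0.18).

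Mitochondrial fatty acid synthesis had 4 of 8 tested genes above WT in non-lesional and 5 in lesional libraries, and none had an unadjusted p under 0.05. With lesional replicates 2 and 11 left out, 7 of 9 tested were above WT. Acyl-CoA activation and triglyceride synthesis had 9 and 8 of 15 above WT, and 8 of 15 in lesional libraries without those replicates. Against WT, the sole gene of this list with an unadjusted p under 0.05 was *Lpin2*, a phosphatidate phosphatase, lower in non-lesional libraries, where 1.31% of all genes were lower at that p. Its level was 24.7 CPM in non-lesional against 36.2 CPM in WT libraries (log2 fold change -0.56, SE 0.25). In lesional libraries it was 50.1 ± 34.1 CPM (SD, n = 5), or 1.02 (SE 0.40) over non-lesional libraries, and 0.13 without lesional replicates 2 and 11. Sterol synthesis, which shares SREBP control and the acetyl-CoA pool, had 19 of 21 genes above WT in each OTULIN E-KO group, against 49.4% and 49.5% of all genes. The medians were 0.20 and 0.33, and 6 and 8 of these genes were higher at an unadjusted p under 0.05, against 1.85% and 3.24% of all genes. *Msmo1*, a sterol demethylation enzyme, was 218 CPM in non-lesional and 246 in lesional against 176 in WT libraries (log2 fold change 0.31, SE 0.11, and 0.48, SE 0.18). The summed sterol genes were highest in lesional replicate 11, at 2399 CPM against at most 1552 in every other library. Without lesional replicates 2 and 11, 12 of the 21 sterol genes were above WT, with a median of 0.06, and 1, *Acat2*, an acetyl-CoA acetyltransferase, was higher at an unadjusted p under 0.05 (log2 fold change 0.53), while *Msmo1* was at 0.20. No gene of these 7 lists passed an adjusted p under 0.05 in any of the 3 comparisons in edgeR.

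The genes whose levels most resembled the mean z score of the 10, among 13451 others over 15 libraries, were *Capn6* (Pearson's r = 0.82, rho = 0.77), *Rps27l* (0.80 and 0.78), *Tlcd1* (0.80 and 0.76), *Kcnmb4*, *Naa50*, *Pdhx*, *Mrpl22*, *Tfdp1*, *Reep6* and *Dnah14*, the last at 0.74 and 0.68. For *Fasn* alone they were *Apip* (0.86 and 0.59), *Rps10* (0.85 and 0.77), *Naa50* (0.84 and 0.64), *Tgs1* (0.84 and 0.66) and *RPS10-NUDT3* (0.84 and 0.79), the last a read-through gene named for *Rps10*. The 15 libraries share the group differences, so this likeness is a description.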

How the data were processed

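RNA of 15 skin samples was sequenced as QuantSeq 3′ libraries. The authors clipped adaptors with cutadapt 2.10, used subread-align for mapping to GRCm38 with spike-in sequences added, filtered matches by quality with samtools, and deposited featureCounts 2.0.1 counts per gene, in which reads shared by overlapping genes count for all of them. The listed options set no strand, and the default of featureCounts ignores it. The annotation release was not given in the sources used here. The authors also deposited CPM, each count over its library total, which were used only to check the counts. The 92 spike-in rows sum to 0 and were left out.

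Each comparison was fitted on its 2 groups with edgeR 4.0.16 in R 4.3.3 (TMM, filterByExpr, robust quasi-likelihood F-test, Benjamini-Hochberg over all genes tested, threshold 0.05). Standard errors are the size of the log2 fold change over the square root of F. The fit was tested on simulated data. Log2 CPM used a prior count of 2, and correlations 100000 permutations. The alternatives were DESeq2 1.42.0, voomWithQualityWeights in limma 3.58.1, 2 other normalizations, 2 other filters, all 15 libraries in 1 fit, each replicate left out in turn, and lesional replicates 2 and 11 left out together.

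The 10 genes and the 16 other gene lists were chosen with earlier results of these data known. The text names the 10 genes, *Otulin*, genes from the 3 of smallest unadjusted p in a list and comparison, and the genes most like the 10 (10 genes) or *Fasn* (5 genes) by Pearson's r. Gene positions and overlaps come from GENCODE vM21, and promoters and their start sites from RefSeq (GRCm38.p6), in which all 10 genes matched. PCR copies were not removed, so counts are not independent molecules.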

Additional observations from a re-analysis of the deposited data

Results flagged for a closer look

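Among the 30 sets of 5 libraries (10 genes in 3 groups), lesional replicate 14 lay far from the other 4 in 2, and chance would flag about 1 set in 20. *Acaca* was 54.5 CPM there, with a gap to the next library of 0.852 of the group's range, and *Pcx* was 42.8 CPM, with a gap of 0.73 of the range, where 0.71 is Dixon's critical value for 5 values. Without this library the log2 fold changes over WT were 0.53 for *Acaca* and 0.51 for *Pcx*. The same library had the lowest *Srebf1* (3.40 CPM), *Elovl6* (323 CPM) and *Me1* (68.6 CPM) of its group.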

How the results depend on the processing

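Over the alternatives run, the median log2 fold change of the 10 genes ran from 0.34 to 0.49 for non-lesional against WT, 0.16 to 0.32 for lesional against WT (0.20 in the report, and highest without lesional replicates 2 and 11) and -0.26 to -0.08 for lesional against non-lesional (-0.17 in the report, -0.08 without lesional replicates 2 and 11 and -0.10 without non-lesional replicate 12). With at least 10 counts in every library the median for lesional against WT was 0.31, over the 8 genes that could be fitted. Of 526 values of single genes under an alternative, 478 kept their direction and side of the threshold, 47 changed sign and 1 passed the threshold (*Fasn*, 0.69 with no filter on low counts). The number of genes past the threshold in non-lesional against WT was 1 with DESeq2, 18 with no filter and 0 to 5 when leaving out 1 replicate, the 5 being without non-lesional replicate 6. In lesional against WT it was 14 with DESeq2. The causes were not tested. The permutation p of library totals ran from 0.0159 to 0.151 (lesional against WT) and from 0.00794 to 0.317 (lesional against non-lesional) when leaving out 1 replicate, the lowest in both without lesional replicate 8. No sign change was in non-lesional against WT. Against WT, lesional *Elovl6* was -0.022 with voom and -0.006 with upper quartile normalization, *Me1* was -0.018 with upper quartile normalization and -0.001 with at least 10 counts in every library, and without lesional replicates 2 and 11 *Me1*, *Elovl6*, *Srebf1* and *Mlxipl* were -0.034, -0.251, -0.235 and 0.356. Against non-lesional, lesional *Acaca* and *Pcx* were -0.01 and -0.169 with voom and -0.021 and -0.007 with upper quartile normalization, and *Fasn* and *Mlxipl* were each 0.067 without lesional replicates 2 and 11. Leaving out 1 replicate gave, against WT, -0.052 to 0.094 for *Me1*, -0.108 to 0.191 for *Elovl6*, -0.059 to 0.418 for *Srebf1*, -0.325 to 0.219 for *Mlxipl* and -0.144 to 0.315 for *Thrsp*. Against non-lesional it gave -0.222 to 0.004 for *Fasn*, -0.104 to 0.123 for *Acaca*, -0.14 to 0.03 for *Acly*, -0.23 to 0.113 for *Pcx*, -0.3 to 0.023 for *Elovl6*, -0.38 to 0.086 for *Srebf1* and -0.616 to -0.076 for *Mlxipl*. With at least 10 counts in every library, lesional *Srebf1* and *Mlxipl* could not be fitted. No paired analysis was run, because the sources used here do not say which libraries share a mouse. With 5 libraries a group, 3′ tag counts of 7 to 88 in *Srebf1* and *Mlxipl* limit precision through counting error alone. The same limit holds for *Pcx*, with counts of 32 to 88, and *Acss2*, with counts of 32 to 91.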
